A study of Homo sapiens with 4 samples.

Results

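The DDX and DHX genes encode RNA helicases, enzymes that use ATP to unwind RNA duplexes, release RNA strands or remodel complexes of RNA and protein. The letters refer to short amino acid motifs of the ATP-binding core, and the DHX branch, named for its DEAH motif, includes the motor proteins that drive successive steps of splicing. m6A peaks on the mRNAs of these genes were examined in HEK293T, an established human embryonic kidney cell line. The members were the peaks on transcripts of coding genes outside chromosomes X and Y whose symbol is DDX or DHX followed by digits and, where present, a letter suffix. Of 51 such genes 45 had a peak, beside 52.3% of all 20056 annotated coding genes, many of which are silent in any given cell line. They carried 220 of the 46757 peaks of both lists, 107 of 23623 in the library named Ctrl and 113 of 23134 in the library named Cas. A further 3 genes of the family lie on X and Y and were left out by the rule.

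m6A is a methyl group on adenosine that a nuclear methyltransferase complex adds to mRNA, mostly in long internal exons and near stop codons. Readers of the mark take part in RNA decay, splicing, export and translation, which are also processes that helicases drive. Peaks were obtained by MeRIP-seq, which sequences RNA fragments bound by an m6A antibody. Per the labels, both groups were HEK293T cells given a construct named dCas13b-M14 and a guide RNA, and were harvested 24 h later. The design text names methylation directed to sites in YTHDF2, SPEN and GAPDH, and no helicase is among them. The labels give Ctrl and Cas the same treatment text, so what set them apart, and what M14 is, is not stated in the sources used here. Each group had 1 immunoprecipitation library, so there was no replicate error, no test was possible, and each difference given is between 2 libraries. The lists give positions without counts or scores, so depth is unknown, and a gene without a listed peak is not shown to be unmethylated.

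The motif at the centre of many m6A sites, GGACT, was looked up in helicase peaks shared by both libraries. Their transcripts had to be readable with a start matching the gene start. This was possible for 8 genes with 18 pairs of overlapping peaks. The windows below are all those with a GGACT whose surroundings were coding, and they show the sequence inside the shared peaks. Each runs 10 bases to either side of the motif's A, is read 5′ to 3′ from the GENCODE release 29 transcript (GRCh38), and has the motif in capitals.
DDX23 codon 25: gcgatcacGGACTcctgacag
DDX54 codon 714: gctgtcctGGACTtgatgggg
DHX37 codon 564: ggggccctGGACTccgacctc
DHX8 codon 286: agctggaaGGACTaaggaagc
DHX8 codon 504: ttcccatgGGACTcaacaaac
The codon is that of the A, numbered from the start codon. The windows lie at chr12:48845700-48845720 for DDX23, chr12:113162976-113162996 for DDX54 and chr12:124965702-124965722 for DHX37, all on the minus strand. Those of DHX8 lie on the plus strand at chr17:43493025-43493449, across an exon junction, and at chr17:43500059-43500079. The GENCODE start had to lie within 10 nt of the RefSeq gene start. The start and exons of the listed transcript itself were not compared, so transcript positions may be off by that much or more.

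The last DHX8 window lies closest to the position that the lists give inside each peak besides its ends, called the further position here and of unstated meaning. Its A lay 4 nt before the further position in Ctrl and 19 nt before that in Cas. The A of the DDX54 window lay 140 nt before the further position, which was transcript position 2309 in both libraries. At these 8 genes GGACT was present in 7 of 19 Ctrl peaks (36.8%, Wilson 95% interval 19.1 to 59.0) and 6 of 20 Cas peaks (30%, 14.5 to 51.9). The same motif was in 29.6% of Ctrl and 27.9% of Cas peaks of all coding genes read the same way, and in 18.8% of 138 consecutive windows of 200 nt along the helicase transcripts. Within 50 nt of the peak centre the order was the other way. GGACT was there in 2 of 19 Ctrl peaks (10.5%, 2.94 to 31.4), beside 16.5% for coding genes, and in 1 of 20 Cas peaks (5.0%, 0.888 to 23.6), beside 15.6%. These intervals, and those over whole peaks, include the values of coding genes. All 19 Ctrl and 20 Cas helicase peaks held the broader motif DRACH (A, G or T, then A or G, then AC, then A, C or T), as did 99.3% of the windows. Only the transcript strand was searched, and GGACT is also a DRACH. A match is a description of the letters and does not place a methylated base.

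Helicase mRNAs with a listed peak nearly always had 1 in both libraries. Among the 45 genes with a peak 44 had peaks in both, beside 86.6% of all coding genes with a peak. None had peaks in Ctrl only, beside 8.89% of coding genes, and only DDX28 had them in Cas only, beside 4.56%. The number of peaks was the same in both libraries at 24 genes (53.3%, background 47.9%), larger in Cas at 14 (31.1%, background 25.8%) and larger in Ctrl at 7 (15.6%, background 26.2%). The Wilson 95% intervals of these 3 shares include the background values. Peaks numbered 1 to 4 per gene in Ctrl and 1 to 5 in Cas, with a median of 2 in each, as for all coding genes. Genes with 2 or more peaks were 84.1% of the helicases with a Ctrl peak (70.6 to 92.1), beside 62.4% of coding genes, and 82.2% of those with a Cas peak (68.7 to 90.7), beside 63.7%. The GENCODE partner transcripts had a median length of 3660 nt for 39 helicases and 3329 nt for 9501 coding genes, and the part of length or of RNA abundance in these shares was not tested.

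Of the Ctrl helicase peaks 96 of 107 (89.7%, Wilson 95% interval 82.5 to 94.2) overlapped a Cas peak by at least 1 bp, beside 76.4% of the Ctrl peaks of all coding genes. Of the Cas helicase peaks 97 of 113 (85.8%, 78.2 to 91.1) overlapped a Ctrl peak, beside 78.0%. The intervals cover the counting of peaks only, and peaks of 1 gene share its RNA. At 23 of the 45 genes every peak of either library was overlapped in the other, beside 41.4% of coding genes. The median width of helicase peaks was 208 bp in Ctrl and 214 bp in Cas, beside 195 and 189 bp, and both width and grid placement moved with overlap. Peaks wider than the median of their list were overlapped in 95.3% of 64 cases in Ctrl (background 88.9%) and 92.8% of 69 in Cas (background 88.5%). The others were overlapped in 81.4% of 43 cases in Ctrl (background 63.9%) and 33 of 44 in Cas (background 67.4%). Some peaks have both ends on a grid of 10 bases, 18.7% of Ctrl and 19.5% of Cas helicase peaks against 27.0% and 28.9% for coding genes. Off that grid 93.1% of 87 Ctrl peaks (background 84.0%) and 91.2% of 91 Cas peaks (background 84.5%) were overlapped. On it 15 of 20 Ctrl peaks (background 55.9%) and 14 of 22 Cas peaks (background 62.1%) were overlapped, and the Cas share, 63.6%, was near the background.

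**Figure D1:**
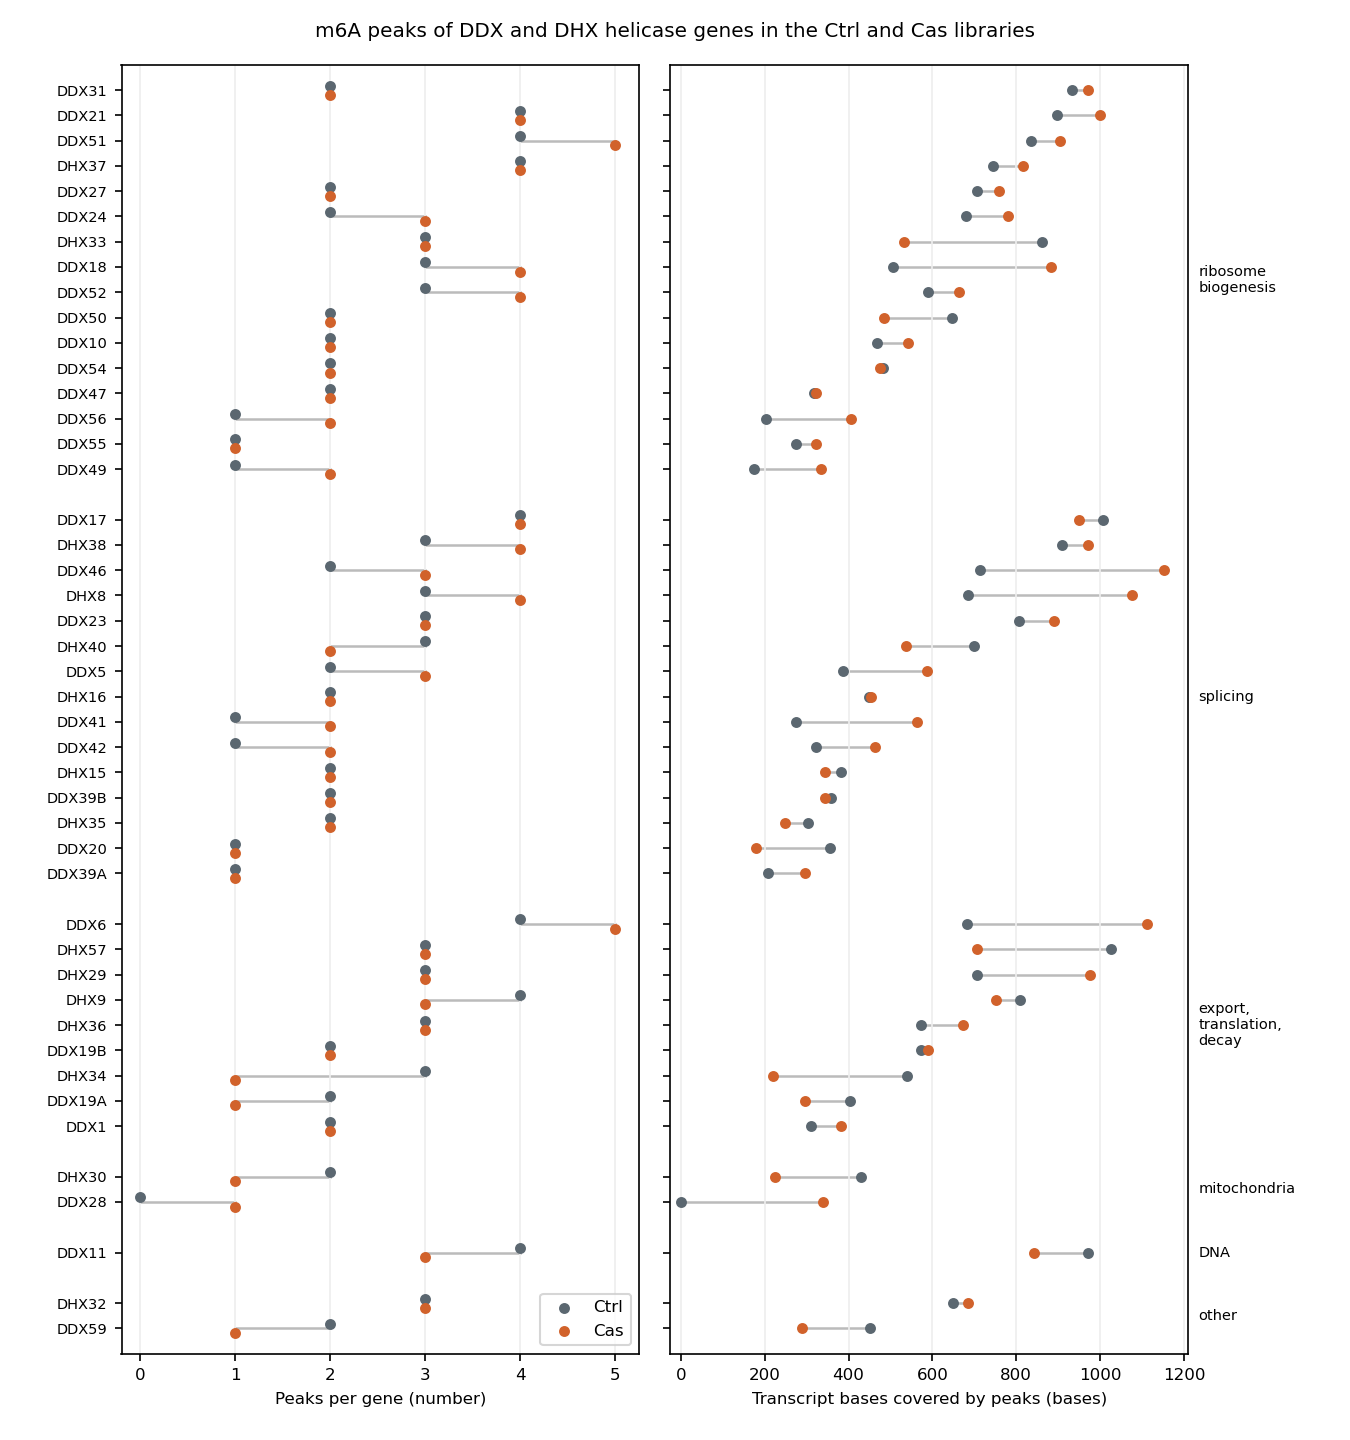
Number of listed peaks (left) and transcript bases covered by peaks (right) for each of the 45 helicase genes with a peak, in the Ctrl (grey) and Cas (orange) libraries, by role group. Each point is the value of 1 library, on the left drawn slightly above (Ctrl) or below (Cas) its row; 24 genes had the same number of peaks in both, and DDX28 is the only gene at 0 in Ctrl.

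The helicases of ribosome biogenesis, which process and fold pre-ribosomal RNA in the nucleolus, formed the largest group. All 16 had peaks in both libraries, 38 in Ctrl and 44 in Cas, and all 38 Ctrl peaks overlapped a Cas peak (90.8 to 100%, background 76.4%). Of the Cas peaks 39 overlapped a Ctrl peak (88.6%, 76.0 to 95, background 78.0%). The other 5 Cas peaks without a Ctrl partner were 1 each at DDX18, DDX24, DDX49, DDX52 and DDX56. None of the 16 genes had more peaks in Ctrl (Wilson 95% interval 0 to 19.4%, background 26.2%). Cas had more at 6 of them (37.5%, 18.5 to 61.4, background 25.8%) and 10 had the same number (62.5%, 38.6 to 81.5, background 47.9%). Bases covered were higher in Cas at 13 of them, beside 49.4% of coding genes with peaks in both libraries. They were higher in Ctrl at DHX33, DDX50 and DDX54.

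DDX21 (chromosome 10, 68956170 to 68985068, GRCh38.p14) encodes a nucleolar helicase that also acts in transcription by RNA polymerase I. Its 4 Ctrl peaks lay at transcript positions 383 to 777, 1366 to 1579, 2334 to 2521 and 3491 to 3590. Its 4 Cas peaks lay at 384 to 777, 1365 to 1620, 2340 to 2520 and 3482 to 3650. The pairs that begin at 383 and 2334 in Ctrl matched within 6 nt at either end, and the last, the narrowest in Ctrl at 100 bp, was 169 bp wide in Cas. Its neighbour and closest relative DDX50 had 2 peaks in each library, over 646 bases in Ctrl and 485 in Cas.

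DDX51 (chromosome 12, 132136594 to 132144319), a factor of the large ribosomal subunit, had 4 peaks in Ctrl and 5 in Cas. The Ctrl peaks spanned 2163 to 2326, 2621 to 2760, 2980 to 3301 and 3681 to 3890. The Cas peaks spanned 2163 to 2326, 2631 to 2753, 2948 to 3140, 3151 to 3430 and 3706 to 3850. All were overlapped, and the Cas peaks at 2948 to 3140 and 3151 to 3430 both overlapped the Ctrl peak from 2980 to 3301. With peaks within 100 bp of each other merged, each library had 4.

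DHX37 (chromosome 12, 124946826 to 124989131), which releases the U3 small nucleolar RNA from pre-ribosomes, had 4 peaks in each library. The Ctrl library listed 411 to 636, 1648 to 1855, 2881 to 3000 and 3711 to 3900. The Cas library listed 396 to 633, 1647 to 1843, 2921 to 3100 and 3661 to 3860. The window printed for codon 564 lies in the second of these peaks. The upstream pairs differed by at most 15 nt at either end, while the downstream pairs, all on the grid of 10 bases, differed by 40 to 100 nt.

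DDX18 (chromosome 2, 117814691 to 117832377), a factor of the large subunit, had 3 peaks in Ctrl and 4 in Cas. Those in Ctrl lay at 395 to 573, 2102 to 2289 and 2711 to 2850. Those in Cas lay at 390 to 572, 911 to 1124, 2102 to 2288 and 2611 to 2910. The peak at 911 to 1124, 214 bp wide and off the grid, had no Ctrl partner, and the Cas peaks that begin at 390 and 2102 had ends within 5 nt of their partners. Peaks covered 507 bases of the transcript in Ctrl and 884 in Cas.

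The remaining genes of this group varied little in number. DDX31 had 2 peaks in each library, with the widest helicase peak of either list, 663 bp in Ctrl and 809 bp in Cas. DHX33, a helicase of ribosomal DNA transcription, had 3 in each, and its middle peak ran from 2103 to 2607 in Ctrl and from 2103 to 2346 in Cas with the further position at 2204 in both. DDX10, DDX27, DDX47 and DDX54 had 2 in each and DDX55 had 1 in each. DDX24 had 2 in Ctrl and 3 in Cas, DDX52 3 and 4, and DDX49 and DDX56 1 and 2. The DDX52 transcript carries a copy suffix in its listed name, and its extra Cas peak, at 6164 to 6264, was 101 bp wide where the narrowest peak listed is 100 bp.

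The spliceosomal and splicing-related helicases move the splicing machinery through assembly, catalysis and release. All 15 had peaks in both libraries, 32 in Ctrl and 37 in Cas. Overlapped peaks numbered 29 in each library, 90.6% of those in Ctrl (75.8 to 96.8, background 76.4%) and 78.4% of those in Cas (62.8 to 88.6, background 78.0%). The 8 Cas peaks without a partner were thus the share found over all coding genes. Cas had more peaks at 6 genes (40.0%, background 25.8%), Ctrl had more at DHX40 (6.67%, background 26.2%), and 8 had the same number (53.3%, background 47.9%), with intervals that include the backgrounds.

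DHX38 (chromosome 16, 72093847 to 72112912), the human counterpart of yeast Prp16, acts before the second catalytic step. Its Ctrl peaks spanned 484 to 1002, 1731 to 1943 and 4123 to 4300. Its Cas peaks spanned 671 to 978, 1301 to 1480, 1715 to 1995 and 4141 to 4343. The first region was 519 bp wide in Ctrl and 308 bp in Cas, and the Cas peak at 1301 to 1480, on the grid, stood alone.

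DHX8 (chromosome 17, 43483975 to 43544799), the counterpart of Prp22, releases the spliced mRNA. It had 3 peaks in Ctrl, at 716 to 978, 1531 to 1692 and 4054 to 4313. It had 4 in Cas, at 699 to 981, 1131 to 1320, 1561 to 1760 and 3893 to 4294. The windows printed for codons 286 and 504 lie in shared parts of the first 2 regions of overlap. Peaks covered 685 bases in Ctrl and 1075 in Cas, with the Cas peak at 1131 to 1320 unpaired. That peak and the one at 1561 to 1760 lie on the grid, and without grid peaks Cas had 1 peak fewer than Ctrl, which turns the direction.

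DDX46 (chromosome 5, 134758779 to 134831121), the counterpart of Prp5, acts when the U2 particle joins the branch site. Its peaks lay at 445 to 917 and 2441 to 2681 in Ctrl. In Cas they lay at 312 to 918, 2361 to 2681 and 3061 to 3284. Both shared regions kept their downstream end to within 1 nt and began 133 and 80 nt earlier in Cas, where 1152 bases were covered against 714 in Ctrl. This was the largest excess of bases in Cas among the 45 genes.

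DDX17 (chromosome 22, 38483438 to 38506311) encodes a helicase of alternative splicing and transcription. Listed for Ctrl were 347 to 573, 1201 to 1370, 1630 to 1891 and 4393 to 4741. Listed for Cas were 343 to 573, 1207 to 1391, 1630 to 1892 and 4471 to 4741. The pattern was nearly the same in both libraries, and the further positions of the last 2 pairs, 1660 and 4663, were identical. Its close relative DDX5 had 2 peaks in Ctrl and 3 in Cas; the peak at 1821 to 2057 had identical ends in both, and the extra Cas peak at 491 to 660 lay on the grid.

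DHX40 (chromosome 17, 59565610 to 59608345), a less studied DEAH helicase, had 3 peaks in Ctrl, at 211 to 396, 1280 to 1427 and 2212 to 2576. In Cas 2 were listed, at 184 to 346 and 2203 to 2577. The middle Ctrl peak, 148 bp wide, had no partner. DDX20, a partner of the SMN protein in assembling small nuclear ribonucleoproteins, had 1 peak in each library, at 1848 to 2204 in Ctrl and 2393 to 2571 in Cas. Of the 44 genes with peaks in both libraries it was the only gene at which none overlapped. DHX15, the counterpart of Prp43 that takes the spent spliceosome apart, shared its second peak (2399 to 2587 and 2399 to 2589) but not its first, at 353 to 544 in Ctrl and 188 to 341 in Cas.

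Of the other splicing genes DDX23, the U5 helicase that corresponds to Prp28, had 3 peaks in each library, all overlapped. DDX39B, which loads export factors on spliced mRNA, DHX16, the counterpart of Prp2, and DHX35 had 2 in each, and DDX39A had 1 in each. The listed transcripts of DDX39B and DHX16 carry copy suffixes. DDX41 and DDX42 had 1 in Ctrl and 2 in Cas, and the additional peaks, at 2051 to 2220 and 1931 to 2060, were on the grid.

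Helicases of mRNA export, translation and decay act on mature mRNA, and the nuclear helicase DHX9 was counted with them here. Of 10 genes 9 had peaks, all in both libraries, with 26 in Ctrl and 23 in Cas. DDX25, known from the testis, had none. Overlapped were 22 Ctrl peaks (84.6%, 66.5 to 93.8, background 76.4%) and 22 Cas peaks (95.7%, 79.0 to 99.2, background 78.0%). Ctrl had more peaks at DHX9, DHX34 and DDX19A (33.3%, background 26.2%), Cas had more at DDX6 (11.1%, background 25.8%), and 5 genes had the same number (55.6%, background 47.9%), again with intervals that include the backgrounds.

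DDX6 (chromosome 11, 118747763 to 118791744), a core protein of P-bodies that joins deadenylation to decapping and translational repression, had 4 peaks in Ctrl. Their positions were 338 to 541, 1958 to 2135, 3855 to 4055 and 5711 to 5810. The 5 Cas peaks had positions 329 to 542, 855 to 1143, 1971 to 2134, 3874 to 4028 and 5751 to 6040. All Ctrl peaks were overlapped, and the Cas peak at 855 to 1143, 289 bp wide and off the grid, was additional. Peaks covered 683 transcript bases in Ctrl and 1112 in Cas.

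DHX34 (chromosome 19, 47349315 to 47382704), a factor of nonsense-mediated decay, had the largest excess of peaks in Ctrl. In Ctrl its peaks were at 224 to 433, 3531 to 3760 and 3861 to 3960, and in Cas only that at 213 to 433 was listed. The first pair ended at the same base and had the further position 306 in both libraries. The downstream Ctrl peaks both lay on the grid and the last was 100 bp wide, the narrowest width listed; without grid peaks each library had 1 peak.

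DHX9 (chromosome 1, 182839347 to 182887982), an abundant nuclear helicase that unwinds double-stranded RNA and R-loops, had 4 peaks in Ctrl and 3 in Cas. The Ctrl peaks lay at 221 to 478, 840 to 1000, 1221 to 1387 and 3751 to 3973. The Cas peaks lay at 182 to 360, 1083 to 1387 and 3701 to 3968. The Ctrl peak at 840 to 1000 had no partner. DHX29, which helps ribosomes scan structured leaders, DHX36, which resolves G-quadruplexes and whose listed transcript carries a copy suffix, and DHX57 had 3 in each library, and DDX1 had 2 in each, all of them overlapped. DHX57 covered 1027 bases in Ctrl, the most of any member there, and 706 in Cas. Among the export helicases DDX19B had 2 peaks in each, and its near relative DDX19A had 2 in Ctrl and 1 in Cas.

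The helicases of mitochondrial RNA, DDX28 and DHX30, each differed in peak number, in opposite directions. Among coding genes with a peak 25.8% had more in Cas and 26.2% more in Ctrl. DDX28 (chromosome 16, 68020916 to 68023232), a factor of mitochondrial ribosome assembly, had no peak in Ctrl and 1 in Cas, at 1791 to 2130. That peak was 340 bp wide, with both ends on the grid. DHX30 (chromosome 3, 47803138 to 47850193), a partner of mitochondrial transcripts and ribosomes, had Ctrl peaks at 1751 to 2030 and 2821 to 2970 and a Cas peak at 1747 to 1971. Both Ctrl peaks lay on the grid, and without grid peaks the order reversed to none in Ctrl and 1 in Cas.

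Outside these groups DDX11 (chromosome 12, 31073860 to 31104799), a DNA helicase of sister chromatid cohesion, had 4 peaks in Ctrl and 3 in Cas. The Ctrl positions were 692 to 920, 2571 to 2770, 3051 to 3212 and 3513 to 3892. The Cas positions were 623 to 960, 3271 to 3390 and 3509 to 3893. The outer regions were shared, with the further position of the first at 793 in both, and the 3 peaks between them were not. A pseudogene copy, DDX12P, was listed with 3 peaks in Ctrl and 2 in Cas, and how reads shared by such copies were assigned is not stated in the sources used here. DDX59 (chromosome 1, 200640805 to 200669907) had Ctrl peaks at 415 to 560 and 741 to 1046 and a Cas peak at 751 to 1040, so that the upstream peak was listed in Ctrl alone. DHX32 had 3 in each, and its first peak, 305 to 598 with the further position 370, was identical in every value.

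No peak was listed for 6 helicases. These were the antiviral DHX58, DDX60 and DDX60L, which are induced by interferon, and DDX4, DDX25 and DDX43, known from germ cells or testis. Whether their RNA was present could not be read from the peak lists.

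**Figure D2:**
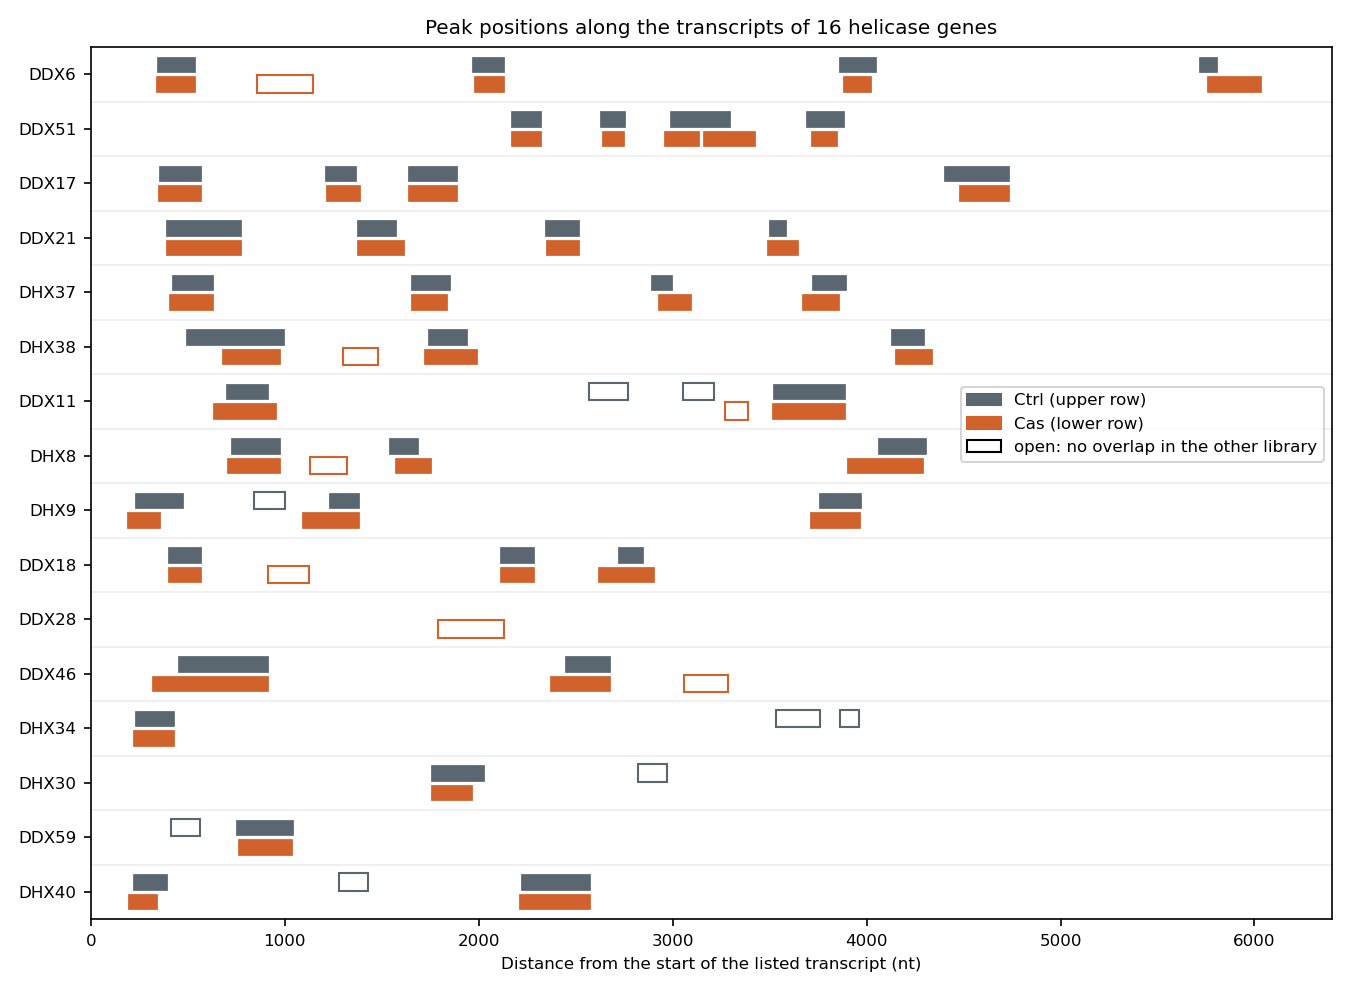
Positions of listed peaks along the transcripts of 16 genes, those with most peaks or the largest differences between libraries, in nt from the transcript start, with Ctrl above (grey) and Cas below (orange). Filled boxes overlap a peak of the other library and open boxes do not; DHX34 has 2 open Ctrl boxes downstream, and the 2 adjoining Cas boxes of DDX51 lie under 1 Ctrl box.

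Overlapping helicase peaks resembled each other in detail. The overlaps formed 95 pairs of 1 Ctrl and 1 Cas peak. The further positions of a pair lay within 10 nt in 56 of them (58.9%, Wilson 95% interval 48.9 to 68.3), beside 39.2% of 16632 pairs of all coding genes. Within 2 nt lay 39 pairs (41.1%, 31.7 to 51.1), beside 23.8%. Neither share was split by placement on the grid of 10 bases, which was less frequent among helicase peaks than over coding genes. The median distance was 5 nt for helicases and 20 nt for coding genes. Examples of identical further positions are 1389 at DDX39A, 1774 at DDX55, 2356 at DDX56 and 2476 at DHX15. Starts differed by a median of 13 nt and ends by 6 nt, beside 20 nt each over coding genes.

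Helicase peaks were more often the wider of the pair in Cas than in Ctrl. Of the 95 pairs 59 were wider in Cas (62.1%, 52.1 to 71.2), beside 46.0% of all pairs, with a median difference of 7 bp for helicases and -1 bp for coding genes. The bases covered were larger in Cas at 28 of the 44 genes with peaks in both (63.6%, 48.9 to 76.2), an interval that includes the 49.4% of coding genes. The median ratio of Cas to Ctrl bases was 1.075 and ranged from 0.409 at DHX34 to 2.05 at DDX41. In sum the helicase peaks covered 25313 bases in Ctrl and 27355 in Cas. Over all coding genes the sums were 5041657 bases in Ctrl and 4879112 in Cas, larger in Ctrl. The lists carry no replicate, so the spread expected between libraries of the same cells is unknown.

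Peak numbers of the DDX and DHX genes are given side by side, with no test of a difference. The 15 DHX genes with peaks had a median of 3 in each library, and the 29 DDX genes with Ctrl peaks and the 30 with Cas peaks had a median of 2. The partner transcripts were also longer for DHX genes, with a median of 4306 nt for 12 of them and 3248 nt for 27 DDX genes, and the part of length was not tested. Peaks numbered 64 in Ctrl and 73 in Cas for DDX genes and 43 and 40 for DHX genes. More peaks in Cas were found at 12 DDX genes (40.0%, 24.6 to 57.7) and 2 DHX genes (13.3%, 3.74 to 37.9), with a background of 25.8%. More in Ctrl were found at 3 DDX genes (10.0%, 3.46 to 25.6) and 4 DHX genes (26.7%, 10.9 to 52.0), with a background of 26.2%. Median widths were close, at 212 and 214 bp for DDX and 204 and 212 bp for DHX genes.

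Positions relative to the reading frame could be read with a start matching the gene start for DDX23, DDX47, DDX54, DDX55, DHX8, DHX15, DHX35 and DHX37. Of their 19 Ctrl peaks 11 had their centre in the coding sequence more than 200 nt from the stop codon, 5 within 200 nt of it to either side and 3 farther on in the 3' UTR. Of the 20 Cas peaks these numbers were 12, 6 and 2. The coding shares were 57.9% in Ctrl (36.3 to 76.9, coding genes 50.1%) and 60.0% in Cas (38.7 to 78.1, coding genes 52.5%). No centre lay in a 5' UTR, where coding genes had 3.56% of their Ctrl and 2.93% of their Cas peaks, too few for a difference to be detectable with 19 or 20 peaks. The window at the stop codon held 26.3% of the Ctrl peaks (Wilson 95% interval 11.8 to 48.8), beside 24.5% for coding genes. It held 30% of the Cas peaks (14.5 to 51.9), beside 23.8%, so both shares were near the background.

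Overlapped peaks in this window had their centres at like distances from the stop codon in both libraries, which follows from their overlap. At DHX15 the centre lay 52 nt before the end of the stop codon in Ctrl and 51 nt before it in Cas. At DDX55 these distances were 84 and 88 nt, at DDX47 112 and 116 nt, and at DHX35 29 and 41 nt. At DDX54 the centre lay past the stop codon, by 149 nt in Ctrl and 146 nt in Cas. The peaks of DDX23 and DHX8 in the 3' UTR lay farther away, at 408 nt in both libraries for DDX23 and at 448 nt in Ctrl and 358 nt in Cas for DHX8. The last DHX37 peak was centred 232 nt past the stop codon in Ctrl, outside the window, and 187 nt past it in Cas, inside.

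With all 34 partner transcripts that hold every listed peak, whose starts may differ from the listed ones, 57.8% of 83 Ctrl peaks and 58.0% of 88 Cas peaks were in the coding sequence away from the stop codon. The window at the stop codon held 21.7% and 22.7%, and the 3' UTR 18.1% and 17.0%. The 5' UTR held 2 peaks in each library, 2.41% in Ctrl and 2.27% in Cas, at DHX32 and DHX34, beside 4.19% and 3.65% for coding genes. Coding genes read the same way had 50.1% of Ctrl and 52.3% of Cas peaks in the coding sequence away from the stop codon. They had 22.9% and 22.0% in the stop window, and 22.8% and 22.1% in the 3' UTR. The intervals of the helicases include those values. The first helicase peak of a gene started at a median of 464.5 nt into the transcript in Ctrl and 491 nt in Cas. Coding genes had 838 and 807 nt. The first start also depends on the number of peaks per gene, and the part of that number here was not tested.

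RNA helicases that carry other symbols were set beside the family. Peaks were listed for 19 of 22 such genes, beside 52.3% of annotated coding genes. At 17 they were in both libraries, beside 86.6% of coding genes with a peak. There were 55 peaks in Ctrl and 67 in Cas. Overlapped were 46 of the Ctrl peaks (83.6%, 71.7 to 91.1, background 76.4%) and 44 of the Cas peaks (65.7%, 53.7 to 75.9, background 78.0%). Cas had more peaks at 11 genes (57.9%, 36.3 to 76.9, background 25.8%). Ctrl had more at 4 (21.1%, 8.51 to 43.3, background 26.2%), and the same number was found at 4 (background 47.9%). In Cas these genes thus had a lower overlapped share than the background, where the DDX and DHX genes had 85.8%, and the difference between the lists was not tested. EIF4A1, the cap-dependent initiation helicase, had 1 peak in Ctrl and 2 in Cas, UPF1, the central helicase of nonsense-mediated decay, had 2 and 3, and HELZ had 5 and 8. ZNFX1 had 9 in Ctrl and 6 in Cas. SKIC2, the helicase that feeds the cytoplasmic exosome, had 3 in Cas only, and its listed transcript carries a copy suffix. These 3 peaks without overlap count in the Cas share above. HELZ2 had 1 in Ctrl only. The antiviral sensor RIGI had 2 and 1, and IFIH1 had none. Among 12 markers of blood, liver, muscle, fibroblast and endothelial cells only VIM and COL1A1 had listed peaks.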

How the data were processed

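The samples were 4 libraries, of which the 2 immunoprecipitation peak lists were used. The deposited lists give RefSeq transcript, first, last and a further inner position, with no counts. Per the submitters' processing notes the build was GRCh38 and the tools included HISAT2, HOMER, edgeR, SAMtools, fastp and FastQC. The peak caller, its threshold and its use of input are not stated in the sources used here. Transcripts were matched to genes by RefSeq accession (GRCh38.p14) after removal of copy suffixes, which 4 members carry; 99 of 11254 transcripts had no match. Overlap required 1 bp on the same transcript, and intervals are Wilson 95%. Background values cover all coding genes, or those with peaks in both libraries where stated, members included. Regions and motifs were read on GENCODE release 29 partners whose start lay within 10 nt of the RefSeq gene start and that held every peak. Python 3.11.15 and pandas 2.3.3 were used, and the overlap code was tested on simulated data.

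Members, role groups and lists were chosen with earlier results of these data known. Positions were given for the 10 genes with most peaks, those in 1 library, and the 5 largest gains and losses, with ties broken by bases. The sequences of DDX23 and DDX54 and the positions of other genes were chosen after their values were seen. Alternatives covered overlap, width, grid, merging, region and motif.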

Additional observations from a re-analysis of the deposited data

How the results depend on the processing

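The overlapped share of helicase peaks stayed within its interval under every alternative tried. It ran from 82.8% to 90.6% in Ctrl and from 78.3% to 85.9% in Cas. No coding gene share was set beside these alternatives or the gene counts below, so the difference from the background is not shown under them. With the wider 50% of each list, which holds fewer peaks by construction, 37 genes had peaks in both libraries, 1 in Ctrl only (DDX20) and 4 in Cas only (DDX1, DDX18, DDX28 and DHX15). Without grid peaks 42 genes had peaks in both, 1 in Ctrl only (DDX59) and 1 in Cas only (DHX30), and the Cas minus Ctrl peak number reversed at DHX30 (1) and DHX8 (-1). Counting the stop codon window as coding sequence or 3' UTR put 78.9% of Ctrl and 80.0% of Cas peaks in coding sequence, by construction. GGACT in place of DRACH, a stricter motif, was in 36.8% of Ctrl and 30% of Cas peaks. Of the values of single genes 28 stayed, 17 moved and 2 reversed. Chosen after seeing the data was leaving out DDX11 and the 4 genes with copy suffixes. This left 39 genes with peaks in both libraries, 0 in Ctrl only and 1 in Cas only. Moving positions by the distance between the partner start and the gene start was also chosen then. It gave 23.3% of Ctrl and 23.0% of Cas peaks in the stop window, and 0% of either in the 5' UTR. No paired analysis was possible because only 1 library stood for each group. Without counts, what depth limits cannot be stated.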
